A study of Rattus norvegicus with 10 samples.

Results

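H3K4me1-only regions are the stretches of the RCS genome where a peak of monomethylated histone H3 lysine 4 (H3K4me1) was called and nothing else was. RCS cells are a line derived from a rat chondrosarcoma, a cartilage tumour. The regions were chosen by a single rule: an interval of the H3K4me1 peak list that shares no base with any interval of the H3K27ac, H3K4me3, H3K9me3, SOX9 or SOX6 peak lists. The rule kept 38820 of the 92421 H3K4me1 peaks, or 42.0% (95% Wilson interval 41.7% to 42.3%). No filter on score or width was applied, and all 38820 regions enter the values below. Because these 5 overlaps chose the regions, overlaps, gaps and everything that follows directly from them are given as descriptions, with no test.

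The series holds 10 ChIP-seq samples from RCS cells, and the labels name no treatment. An immunoprecipitation was made with 1 library each for SOX9 (antibody AB5535), SOX6 (ab30455), H3K27ac (ab4729), H3K4me1 (ab8895), H3K4me3 (ab8580) and H3K9me3 (ab8889). The other 4 samples are inputs without an antibody, and the methylation marks share 1 of them. All samples come from 1 cell line and each antibody has 1 library, so no value has a replicate error, no test between groups was possible, and intervals cover counting error only. Neighbouring peaks are not independent, which makes these intervals too narrow. The inputs held 36873004 to 131858579 reads, of which 53.4% to 53.5% aligned. The read depth of the immunoprecipitated libraries was not used here.

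H3K4me1 is placed by the MLL3 and MLL4 methyltransferases and marks enhancers before, during and after their activity. H3K27ac, placed by the acetyltransferases p300 and CBP, is found at enhancers and promoters in use, and H3K4me3 is found mainly at promoters. Enhancers with H3K4me1 and without H3K27ac are often called primed. H3K27me3, whose presence would separate poised from primed elements, is not analysed here. In cartilage SOX9 directs chondrocyte differentiation and SOX6 acts beside it. An annotation of rn5, the build of the files, was not used here, so the regions are given by position and not by gene.

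H3K4me1-only regions made up the largest of the classes into which the H3K4me1 peaks fell. They covered 34.9 Mb, or 30.1% of the length under H3K4me1 peaks. The next largest classes were peaks that met H3K4me3 and not H3K9me3 (23593) and peaks that met H3K27ac with no SOX, H3K4me3 or H3K9me3 peak (15757, called acetylated regions without SOX below). Peaks with a SOX peak and none of the 3 other marks numbered 2258, and peaks with H3K9me3 alone 1523. H3K27ac was the list that decided membership most often, since it met 51.0% of all H3K4me1 peaks and was the sole reason for leaving out 15757 of them. H3K4me3 met 26.4% and alone left out 2288. H3K9me3 met 5.23%, SOX6 14.8% and SOX9 12.0%, and they alone left out 1523, 1393 and 505.

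The 1 bp limit of the rule concerned few regions. Of the H3K4me1-only regions, 757 (1.95%) lay within 100 bp of an interval of another list, most often H3K27ac (462) or H3K4me3 (226). On the other side, 451 H3K4me1 peaks were left out although they shared at most 100 bp with the other lists. Their median width was 657 bp and their median score 78.0, against 677 bp and 88.6 for the 757 regions just inside. The H3K4me1 peaks outside the class typically shared 86.5% of their width with the other lists.

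H3K4me1-only regions were narrower and lower in score than acetylated regions without SOX. Their widths ran from 285 to 8472 bp, with a median of 745 bp (quartiles 596 and 1041 bp), and 10490 of them (27.02%) were narrower than 600 bp. Acetylated regions without SOX had a median width of 1130 bp (756 and 1699 bp), and peaks with H3K4me3 1114 bp (768 and 1754 bp). Widths above 2 kb were seen in 3.09% of H3K4me1-only regions and 16.4% of acetylated regions without SOX. Peaks with H3K9me3 alone were narrower than H3K4me1-only regions, with a median of 678 bp and 2.95% above 2 kb. The width of an interval affects its chance of meeting another list, so these widths are partly set by the rule. Score rose with width across all H3K4me1 peaks (rank correlation 0.898).

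The score is the authors' own value for each peak, deposited without a stated scale, and was used only to order peaks within the H3K4me1 list. H3K4me1-only regions scored from 50.02 to 3134, with a median of 94.0 (quartiles 64.3 and 165), and 53.2% of them scored below 100. The median was 246 (120 and 522) in acetylated regions without SOX, 185 (100.1 and 348) in peaks with SOX and no H3K27ac, and 653 (330 and 1259) in peaks with H3K27ac and SOX. Peaks with H3K9me3 alone were also low, at 85.6 (63.1 and 142). The median was lower in H3K4me1-only than in acetylated regions without SOX on all 20 autosomes. The deposited lists show no signal below a score of 50, so a region counted as lacking a mark may carry it under that limit.

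Across the H3K4me1 list the share of H3K4me1-only regions fell at every step of the score. In the lowest decile 71.6% (70.7% to 72.5%) of peaks were H3K4me1-only, in the fifth 48.8% (47.8% to 49.8%) and in the highest 3.09% (2.76% to 3.47%). Over the same deciles the share of peaks with H3K27ac went from 19.96% to 95.6%, and that with a SOX peak from 4.13% to 59.2%. The share with H3K9me3 lay between 4.45% and 4.96% in the first 8 deciles and was 9.61% in the highest.

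**Figure D1:**
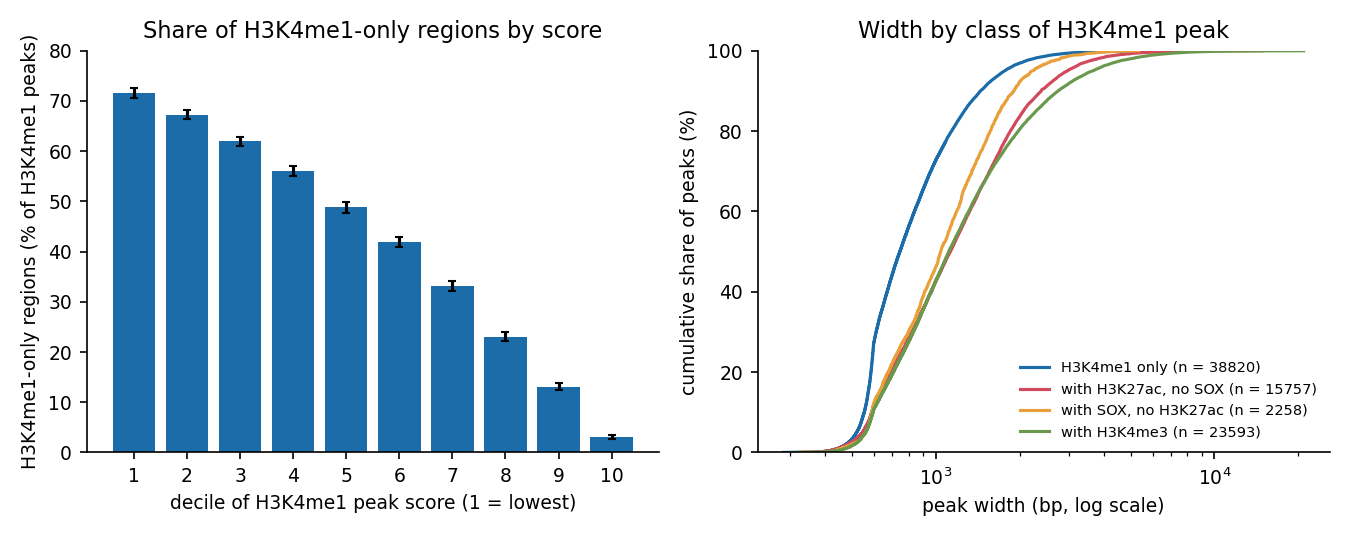
Left, share of H3K4me1 peaks that are H3K4me1-only in each decile of the authors' score, with Wilson 95% intervals as bars, with 71.6% in decile 1 and 3.09% in decile 10. Right, cumulative share of peaks (%) against width (bp, log scale) for H3K4me1-only regions and 3 other classes of H3K4me1 peak, with H3K4me1-only regions to the left of the others at a median of 745 bp.

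Width and score rose together across H3K4me1-only regions, with a rank correlation of 0.843 over the 38820 regions, which share 1 library. The share that was H3K4me1-only also differed by width within quintiles of score. In the third quintile of score, 32.2% (29.0% to 35.6%) of peaks below 600 bp were H3K4me1-only, 40.5% of those from 600 bp to below 900 bp, 48.6% of those from 900 bp to below 1500 bp and 50.7% (46.3% to 55.0%) of those of 1500 bp or wider. In the fourth quintile the shares were 9.63% (5.71% to 15.8%), 20.3%, 28.1% and 30.2% in the same order. The lowest quintile showed no such order, with 69.8% below 600 bp and 68.7% from 600 bp to below 900 bp. Narrow peaks of the third quintile met H3K27ac more often than wide ones, at 58.8% below 600 bp and 38.8% at 1500 bp or wider.

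A few H3K4me1-only regions stood near the top of the list by score. Scores above 1000 were found in 196 of them, out of 7714 such H3K4me1 peaks (2.54%). Their median width was 2963 bp. The region with the highest score, 3134, lay at chr3:100164042-100171539 (rn5). It was 7498 bp wide and ranked 80 in the whole H3K4me1 list, and it stood 4.25 kb from an H3K27ac peak that carries the score of 3100 and 7.51 kb from a SOX9 peak. The next, with a score of 3100, lay at chr7:12471954-12476654, 1.63 kb from H3K27ac and 6.71 kb from SOX6. The third was at chr10:30793725-30799119 (score 2783), 17.1 kb from H3K27ac and 39.9 kb from SOX6.

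The other 7 of the 10 highest scores spread over 6 chromosomes. The region at chr9:53935996-53942161 scored 2737, 12.2 kb from H3K27ac. The one at chr1:101882713-101888491 scored 2675 and had H3K27ac, H3K4me3 and SOX6 all between 2.20 and 2.25 kb away. The region at chr7:60389560-60393944 scored 2449, and chr10:105310416-105314897 scored 2374 with H3K4me3 only 0.215 kb away. The remaining ones lay at chr8:128811079-128814486 (score 2330), chr15:55732887-55736978 (2294) and chr10:43266407-43270211 (2236). All 10 had another H3K4me1 peak within 1 kb, 5 had H3K27ac within 5 kb and 2 had a SOX peak within 5 kb. For 6 of them the nearest H3K27ac peak carried the score of 3100, a value shared by 9333 of the 50834 H3K27ac peaks.

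The widest H3K4me1-only region measured 8472 bp, at chr9:99677499-99685970, with a score of 2144. It was followed by chr1:33840382-33848218 (7837 bp) and chr4:58145945-58153684 (7740 bp). Of the 10 widest, 3 were also among the 10 highest scores, namely those named above on chromosomes 3, 9 and 1. The other 4 lay at chr7:119020304-119026759 and chr7:66916896-66923109, chr14:64787266-64793696 and chr11:38461204-38467131. The 10 regions scored 1429 or more. H3K27ac lay within 5 kb of 7 of them, and 9 had another H3K4me1 peak within 1 kb.

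H3K27ac lay within 12500 bp of most H3K4me1-only regions, and the shares at 5 kb and 100 kb were near the background. The gap from an H3K4me1-only region to the nearest H3K27ac peak, measured between edges, had a median of 6.98 kb (quartiles 2.02 and 21.1 kb), with 15.2% of regions within 1 kb and 63.8% within 12500 bp. Within 5 kb lay 42.6% (42.1% to 43.1%) of them, against a background of 42.3% of all H3K4me1 peaks without H3K27ac, most of which are the same regions. Beyond 100 kb lay 1822 regions, or 4.69% (4.49% to 4.91%, background 5.42%). Peaks with SOX and no H3K27ac were farther from H3K27ac, with a median of 15.7 kb (4.95 and 45.8 kb) and 11.6% (10.3% to 12.9%) beyond 100 kb. Within 12500 bp of H3K27ac lay 44.7% of these peaks and 65.9% of peaks with H3K9me3 alone. No background over all H3K4me1 peaks without H3K27ac is given at that limit. The H3K27ac peak nearest to an H3K4me1-only region scored above the median of the H3K27ac list (332) in 57.5% (57.0% to 58.0%) of cases. With the other lists limited to peaks above their median score, the median gap was 11.7 kb.

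H3K4me1-only regions were found both between and outside acetylated peaks. When H3K27ac peaks with gaps of at most 12500 bp were merged, 5349 H3K4me1-only regions, or 13.8% (13.4% to 14.1%), lay inside the merged spans. The share was 5.71% (4.83% to 6.75%) for peaks with SOX and no H3K27ac and 19.2% (17.3% to 21.2%) for peaks with H3K9me3 alone. The share over all H3K4me1 peaks without H3K27ac is not given here. Over the 5 other lists, the nearest interval belonged to H3K27ac for 43.6% of H3K4me1-only regions, to H3K9me3 for 23.4%, to H3K4me3 for 23.3%, to SOX6 for 6.29% and to SOX9 for 3.50%. The lists differ in length, so these shares do not compare the marks. In all, 77.4% of H3K4me1-only regions had some interval of the other lists within 12500 bp, and 358 had none within 100 kb. Every other H3K4me1 peak overlaps such an interval by the rule, so these values have no background share.

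The 5 H3K4me1-only regions farthest from H3K27ac had low scores, from 53.1 to 125. A group of 3 lay on chromosome 2, at chr2:152907406-152908017 (2645 kb from H3K27ac), chr2:152547088-152547678 (2285 kb) and chr2:152245985-152247037 (1984 kb). The first of these was only 37.4 kb from a SOX9 peak. The others lay at chr10:23517245-23517906 (1890 kb) and chr18:20851136-20851935 (1843 kb).

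SOX peaks stood farther from H3K4me1-only regions than H3K27ac did. The H3K27ac list holds 50834 peaks over 82.3 Mb, while the SOX9 and SOX6 lists cover 9.53 and 10.2 Mb. These gaps therefore do not compare H3K27ac with SOX. The gap to the nearest SOX9 or SOX6 peak had a median of 16.7 kb (quartiles 5.90 and 43.8 kb). It was 30.6 kb to SOX9 and 23.2 kb to SOX6, whose list is longer (19355 against 14782 peaks). A SOX peak lay within 5 kb of 21.7% (21.3% to 22.1%) of H3K4me1-only regions, against a background of 28.8% of all H3K4me1 peaks without SOX. Most peaks of that background are the same regions. Beyond 100 kb lay 3554 regions, or 9.16% (8.87% to 9.45%, background 8.95%). With the other lists limited to peaks above their median score, the median gap to SOX was 34.5 kb.

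Acetylated regions without SOX differ from H3K4me1-only regions by H3K27ac alone, since both lack SOX, H3K4me3 and H3K9me3 peaks. The acetylated regions lay nearer to SOX, with a median gap of 7.43 kb (1.74 and 24.5 kb) and 42.1% (41.3% to 42.9%) within 5 kb. The median gap was longer in H3K4me1-only regions on all 20 autosomes. The order was the same within classes of score and width. In each of the 13 combinations of score quintile and width class with at least 100 regions of both kinds, the H3K4me1-only regions had the longer median gap, by 1.30 to 5.18 times. No test of the difference was made, because 1 library of each kind stands behind all the regions. Peaks with H3K9me3 alone did not lie nearer to SOX than H3K4me1-only regions. Their median gap was 22.0 kb (6.04 and 101 kb), with 21.1% (19.1% to 23.2%) within 5 kb. The long gap to SOX was thus not particular to H3K4me1-only regions.

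**Figure D2:**
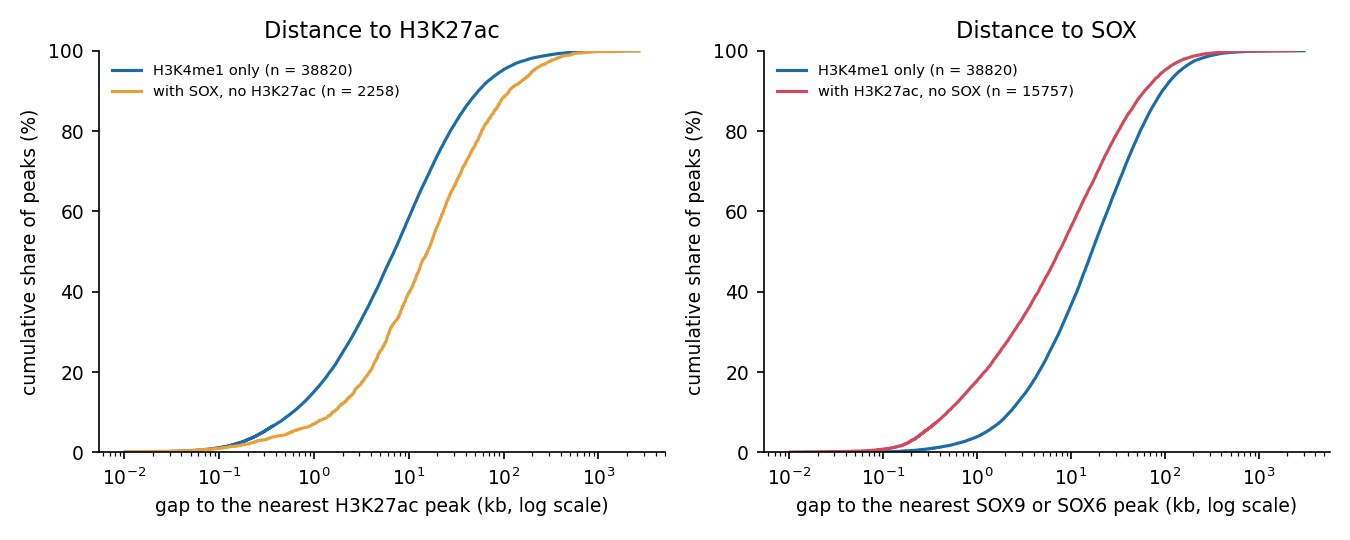
Cumulative share of peaks (%) against the gap in kb (log scale, gaps under 0.01 kb drawn at 0.01) to the nearest H3K27ac peak (left) and the nearest SOX9 or SOX6 peak (right). H3K4me1-only regions reach 50% at 6.98 kb from H3K27ac and 16.7 kb from SOX, while acetylated regions without SOX reach it at 7.43 kb from SOX.

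The gap to SOX varied with the score. By quintile of score, H3K4me1-only regions lay nearer to SOX, from a median of 18.3 kb in the lowest to 16.5 kb in the third and 12.8 kb in the highest. The 196 regions with scores above 1000 went no further, with a median of 12.9 kb. SOX was within 5 kb of 17.3% of those 196, against 24.5% of H3K4me1-only regions in the highest quintile. Acetylated regions without SOX had medians of 5.48, 5.36, 7.49, 8.66 and 7.81 kb from the lowest to the highest quintile with all widths together. Within a width class their gap also shortened toward high scores, from 7.04 kb in the lowest to 2.62 kb in the fourth quintile at 600 bp to below 900 bp, and from 11.7 kb in the fourth to 8.61 kb in the highest at 1500 bp or wider. The gap from H3K4me1-only regions to H3K27ac shortened with the score too, from 7.61 to 5.27 kb.

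Distance to H3K4me3 did not part the classes in this way. The median gap was 16.3 kb (4.88 and 44.2 kb) for H3K4me1-only regions and 15.4 kb (4.57 and 42.6 kb) for acetylated regions without SOX, and it was longer for H3K4me1-only regions in 4 of the 13 combinations of score and width. H3K9me3 lay farther from H3K4me1-only regions, at a median of 26.6 kb against 18.5 kb, in 13 of the 13 combinations. H3K9me3 is the mark of heterochromatin.

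The SOX peaks nearest to H3K4me1-only regions scored around the middle of their lists. The nearest SOX9 peak scored above the median of its list (90.3) for 49.0% (48.5% to 49.5%) of H3K4me1-only regions, and for 61.7% (61.0% to 62.5%) of acetylated regions without SOX. For SOX6 (list median 104) the shares were 48.3% (47.8% to 48.8%) and 58.9% (58.1% to 59.6%). Where the SOX peak was within 5 kb the shares for SOX9 were 47.8% and 70.7%. SOX6 was the nearer factor for 55.0% of H3K4me1-only regions, and SOX9 for 53.0% of acetylated regions without SOX. The gaps to SOX9 and to SOX6 were within 1 kb of each other for 34.5% and 50.9% of them.

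Put the other way round, the share of H3K4me1-only regions was lowest close to a SOX peak. Among the H3K4me1 peaks without SOX, H3K4me3 and H3K9me3, 35.2% (33.8% to 36.6%) of those up to 1 kb from a SOX peak lacked H3K27ac and so were H3K4me1-only. The share was 64.4% (63.5% to 65.3%) from 1 to 5 kb, 74.1% from 5 to 20 kb, 78.3% from 20 to 100 kb and 82.4% (81.2% to 83.5%) over 100 kb. The rise was steepest within 20 kb. In the lowest quintile of score the share went from 60.5% (57.0% to 63.9%) up to 1 kb to 91.8% at 5 to 20 kb and 92.7% over 100 kb. In the highest quintile it went from 7.76% (5.995% to 9.99%) to 28.5% and 30.5% (24.4% to 37.4%). These shares restate the gaps to SOX given above. Of H3K4me1 peaks with SOX and without H3K4me3 or H3K9me3, 7157 met H3K27ac and 2258 did not. An H3K27ac interval at a SOX peak can reach an H3K4me1 peak beside it. The low share near SOX and the short gaps of acetylated regions are therefore not independent of the rule.

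**Figure D3:**
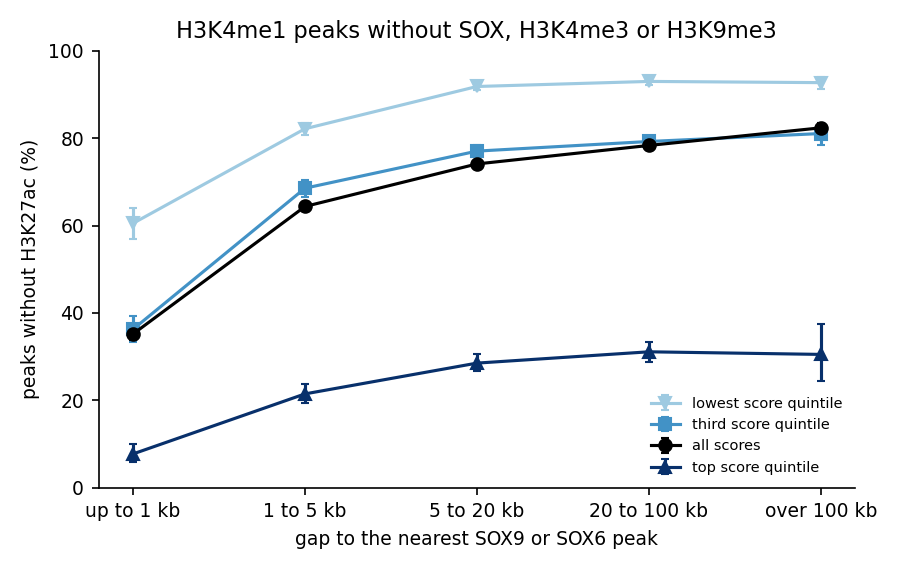
Share of H3K4me1 peaks that are H3K4me1-only (%), among those without a SOX, H3K4me3 or H3K9me3 peak, by gap to the nearest SOX9 or SOX6 peak, with Wilson 95% intervals. The share rises at each step for all scores together (35.2% to 82.4%) and in the third quintile. In the lowest and the top quintile it rises up to 20 to 100 kb and is 92.7% and 30.5% over 100 kb, against 93.0% and 31.1% one step before.

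The 5 H3K4me1-only regions farthest from SOX were much nearer to H3K27ac, at 3.15 to 235 kb. Those at chr8:17489789-17490823 and chr8:17511732-17513149 were 3027 and 3005 kb from SOX, but 3.15 and 15.6 kb from an H3K27ac peak with a score of 3151. Those at chr13:1705336-1705878 and chr13:1922644-1923599 were 1992 and 1774 kb from SOX. The fifth lay at chrX:128640879-128641485, 1759 kb away. Their scores were 51.9 to 134.

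H3K4me1-only regions were more widely spaced than acetylated regions without SOX, and less widely than peaks with SOX and no H3K27ac. The nearest H3K4me1 peak of any kind lay at a median of 1.88 kb (quartiles 0.365 and 7.81 kb), against 0.626 kb (0.169 and 3.37 kb) for acetylated regions without SOX and 0.876 kb for peaks with H3K4me3. For peaks with SOX and no H3K27ac the median was 5.15 kb, and 24.8% (23.1% to 26.7%) of them had another H3K4me1 peak within 1 kb. Another H3K4me1 peak was present within 1 kb of 39.4% (38.9% to 39.9%) of H3K4me1-only regions, against a background of 47.8% of all H3K4me1 peaks and 57.7% (57.0% to 58.5%) of acetylated regions without SOX. In 12 of the 13 combinations of score and width the median gap was longer for H3K4me1-only regions than for acetylated regions without SOX. The exception was 1500 bp or wider in the fourth quintile, at 1.33 and 1.47 kb. The median gap for H3K4me1-only regions was 5.31 kb when H3K4me1 peaks within 1 kb were joined first.

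At a limit of 1 kb, most H3K4me1-only regions stood by themselves. Another H3K4me1 peak lay that near for 39.4% of them, against 47.8% of all H3K4me1 peaks. At the longer gap used for the runs described below, 53.5% of H3K4me1-only regions were joined with others into runs. Runs were formed for this class alone, so no background share is given for them. With H3K4me1 peaks no more than 1 kb apart taken as 1 stretch, 23517 (60.6%) were alone, 6235 (16.1%) were in 2796 stretches made of H3K4me1-only regions, and 9068 (23.4%) were in stretches that also held a peak of another class. The last kind lay 0.920 kb from H3K27ac and 4.88 kb from SOX at the median. The solitary ones lay 12.0 and 23.0 kb away. Median widths were nearly equal, at 744 bp for the solitary regions and 745 bp for those in mixed stretches, and median scores were 90.2 and 101. A mixed stretch holds, by its definition, an H3K4me1 peak of another class, which can itself overlap H3K27ac or SOX, so its short gaps are not independent of that definition.

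H3K4me1-only regions tended to follow one another along the chromosome. Of the H3K4me1 peaks next to an H3K4me1-only region, 53.7% (53.3% to 54.0%) were H3K4me1-only as well, against 42.0% of the list. Between neighbours at most 1 kb apart the share was 57.9%, while 34.3% of all peaks in such pairs were H3K4me1-only. The nearest other H3K4me1-only region lay at a median of 5.96 kb (1.04 and 20.6 kb), and 5.06% had none within 100 kb.

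Runs were formed from consecutive H3K4me1-only regions at most 12500 bp apart with no interval of the 5 other lists between them. Of the 38820 regions, 18042 (46.5%) were single, and the other 20778 formed 7474 runs of 2 to 20 regions. Runs of 5 to 9 numbered 661 and held 10.1% of the regions, and 49 runs of 10 or more held 569 regions. At their closest point, the nearest H3K27ac peak was at a median of 7.40 kb from single regions, 3.62 kb from runs of 2, 2.31 kb from runs of 3 to 4, 1.801 kb from runs of 5 to 9 and 2.36 kb from runs of 10 or more. A run has more regions from which the shortest gap is taken, so these medians do not compare single regions with members of runs.

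**Figure D4:**
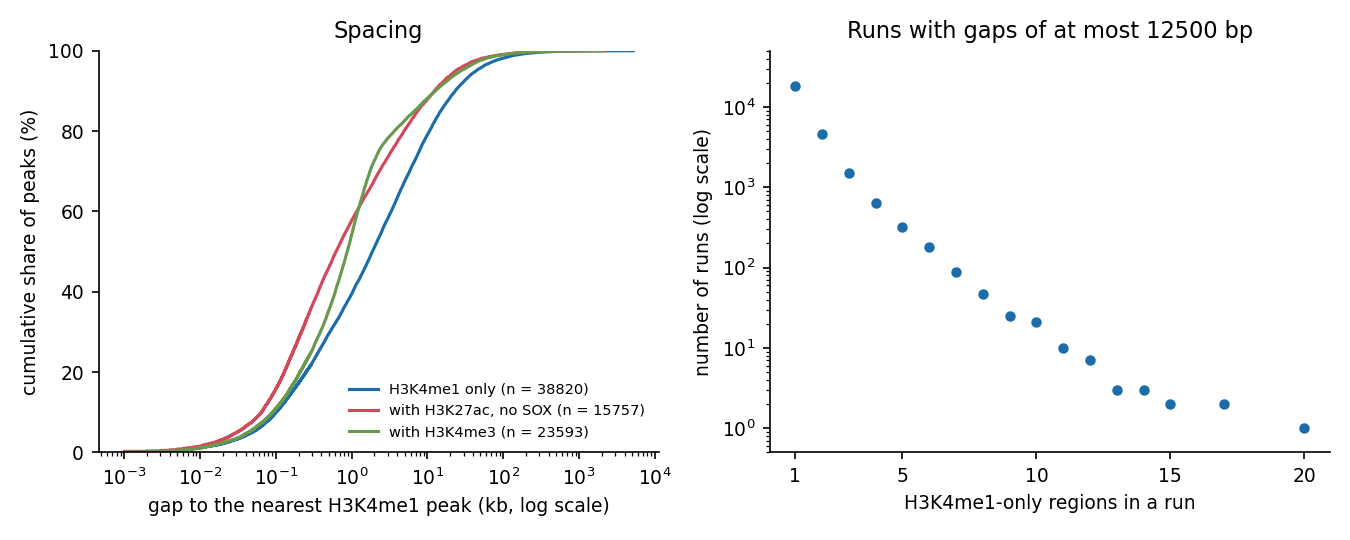
Left, cumulative share of peaks (%) against the gap in kb (log scale) to the nearest H3K4me1 peak of any kind, with H3K4me1-only regions reaching 50% at 1.88 kb and acetylated regions without SOX at 0.626 kb. Right, number of runs (log scale) by the number of H3K4me1-only regions in a run, from 18042 single regions to 1 run of 20.

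The run with the most regions held 20 H3K4me1-only regions in 42.0 kb at chr16:21122646-21164630 (rn5). They covered 62.6% of its length and scored from 53.5 to 1249, with a median of 179. The nearest H3K27ac peak was 3.71 kb and the nearest SOX peak 24.4 kb from it. Runs of 17 lay at chr3:144492214-144520978, with a median score of only 60.4, and at chr10:74315444-74373998, with a median of 87.0. Runs of 15 lay at chr1:52228626-52277916 and at chr9:53926932-53962672. The second of these contains the region with the score of 2737 described above.

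The other 5 of the 10 runs with the most regions held 13 or 14 regions. The runs at chr7:141875389-141895164 and chr9:85816900-85871661 had H3K27ac 4.06 and 5.55 kb away. The run at chr12:45389384-45421680 was 14.8 kb from H3K27ac and 83.1 kb from SOX. The last pair lay on chromosome 1, at chr1:79764051-79802597 with SOX 1.54 kb away and at chr1:117190416-117259251 with SOX 42.2 kb away.

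H3K4me1-only regions were present on all 20 autosomes and on X, with densities that moved with the input. They numbered 8.36 per Mb on chromosome 15, the lowest autosome, 13.1 on the median autosome and 25.5 on chromosome 10, the highest. Chromosomes 7 (21.6), 9 (19.7), 16 (19.3) and 12 (18.6) followed. Input reads without a mismatch per Mb, relative to the median chromosome, were 1.91 on chromosome 7, 2.03 on 9 and 2.05 on 16, but 1.31 on chromosome 10 and 0.994 on chromosome 12. Chromosome 11 had an input of 1.63 and a density of 14.4.

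Over the 20 autosomes the density of H3K4me1-only regions had a Pearson correlation of 0.723 and a rank correlation of 0.853 with the relative input, and r = 0.688 without chromosomes 9 and 16, which lie farthest from the median input. For acetylated regions without SOX the values were 0.590, 0.626 and 0.514. The median score of H3K4me1-only regions also followed the input, from 84.4 on chromosome 15 to 103 on chromosome 7 (rank correlation 0.896). These are descriptions of chromosomes that share the same libraries, with no p-value. The part of copy number or mappability in them was not tested.

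The share of H3K4me1 peaks that were H3K4me1-only varied far less than their density. It ran from 38.6% (36.7% to 40.6%) on chromosome 19 to 45.0% (43.3% to 46.6%) on chromosome 13, with 41.7% on the median autosome, and its rank correlation with the input was 0.510 (Pearson 0.323, and 0.363 without chromosomes 9 and 16). The median gap to H3K27ac ran from 4.74 kb on chromosome 12 to 8.62 kb on chromosome 18. The median gap to SOX ran from 12.47 kb on chromosome 12 to 25.02 kb on chromosome 20.

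The X chromosome lay below every autosome in the density, share and median score of H3K4me1-only regions. It held 290 H3K4me1-only regions, 1.88 per Mb, at a relative input of 0.595. The 290 regions made up 33.4% (30.4% to 36.7%) of its 867 H3K4me1 peaks, and 0.747% of all H3K4me1-only regions, against 0.938% of all H3K4me1 peaks that lie on X. They scored lower than those of any autosome, with a median of 78.2. Their median gaps, 7.42 kb to H3K27ac and 21.9 kb to SOX, were within the range of the autosomes. Their median gap to the nearest other H3K4me1-only region was 13.4 kb, above the autosome range of 4.23 to 9.24 kb. Low density and score on X were not particular to this class. Acetylated regions without SOX numbered 1.61 per Mb there (lowest autosome 3.71), with a median score of 119 (lowest autosome 149).

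**Figure D5:**
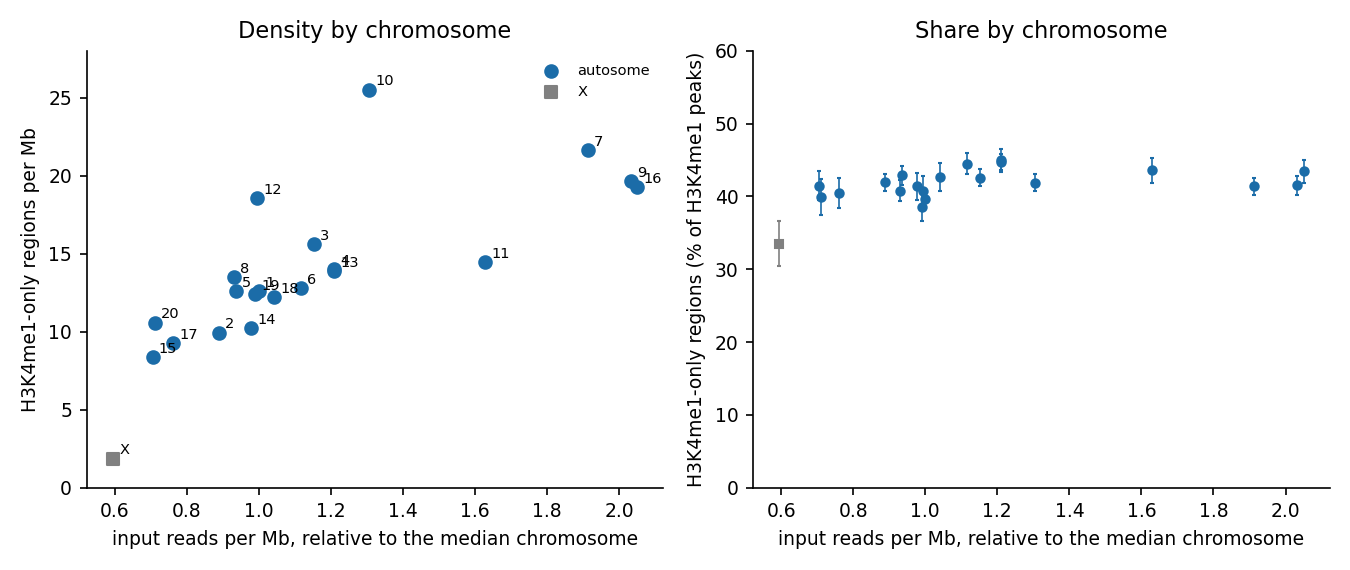
H3K4me1-only regions per Mb (left) and as a share of H3K4me1 peaks (right, Wilson 95% intervals) against input reads per Mb relative to the median chromosome, averaged over the 4 inputs, with autosomes as circles and X as a square. Density ranges from 8.36 to 25.5 per Mb over the autosomes, while the share stays between 38.6% and 45.0%.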

How the data were processed

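The analysis used the 6 peak lists and 4 input tables. Peaks carry MACS in their names, per the deposited files, and the submitters' processing notes name CASAVA 1.8 and build rn5. Of the caller, version, settings and controls were not given in the sources used here. The authors deposited 1 score per peak, which was used within its own list. The authors deposited the inputs as raw read counts per chromosome. Intervals were read as counted from 0 and are printed counting from 1. Overlap meant 1 bp in common, and gaps were measured between edges. Chromosome length was the last peak end over the 6 lists. Deciles and quintiles of score were formed over all H3K4me1 peaks. The regions named are the 10 highest scores, the 10 widest, the 5 farthest from H3K27ac, the 5 farthest from SOX and the 10 runs with the most regions. The regions, classes and comparisons were chosen with earlier results of these data known, and those of acetylated share by distance, of stretches and of score by width after the values were seen. The interval functions were tested on simulated data. Python 3.11.15, NumPy 2.4.6, pandas 2.3.3, SciPy 1.17.1 and Matplotlib 3.10.9 were used.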

Additional observations from a re-analysis of the deposited data

How the results depend on the processing

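The count of H3K4me1-only regions stayed within 1.5 times of 38820 in 5 of 6 alternatives. It was 55518 with the other lists limited to peaks above their median score and 26308 with H3K4me1 peaks within 1 kb joined first, and it fell to 10561, by construction, with H3K4me1 peaks above their median score. In that last setting the median width was 1297 bp, the median score 243, the gap to the nearest H3K4me1 peak 3.84 kb, to H3K27ac 6.34 kb and to SOX 15.015 kb, and the density ratio of the highest to the lowest autosome 4.12, against 3.05 as reported. With the other lists limited, the medians were 807 bp, a score of 111, and gaps of 1.78, 11.7 and 34.5 kb in the same order. With an overlap of at least 0.5 of the narrower interval they were 759 bp, 97.1, and 1.74, 5.90 and 16.3 kb. With no other interval within 1 kb they were 754 bp and 2.91, 9.87 and 19.96 kb. With joining they were 795 bp, 95.9, and 5.31, 11.3 and 22.1 kb, with a density ratio of 2.64. Without chromosomes 7, 9, 11 and 16 the median width was 739 bp, the score 92.5 and the gap to SOX 17.2 kb. Between centres the gaps were 8.37 kb to H3K27ac and 17.4 kb to SOX. Of the 46 alternative values, 14 lay within the binomial interval of the reported median or ratio, or, for counts, within 1.5 times. The other 32 moved outside these limits. The density ratio without chromosomes 7, 9, 11 and 16 is among the 14 but could not move, because chromosomes 10 and 15 set it. No paired analysis was possible because each antibody has 1 library, and no replicate could be left out for the same reason.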

Other observations

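At the scale of 1 Mb, H3K4me1-only regions were spread unevenly. The matching spread of all H3K4me1 peaks is not given here, so the unevenness is not shown to be particular to this class. Over the 20 autosomes the densities of H3K4me1-only regions and of acetylated regions without SOX had a Pearson correlation of 0.955. The 2759 windows of 1 Mb on the autosomes held a median of 9 H3K4me1-only regions (quartiles 2 and 22), and the fullest 10% of the windows held 33.0% of them. No H3K4me1-only region was found in 417 windows (15.1%), of which 275 had no H3K4me1 peak of any kind. The fullest windows lay side by side on chromosome 7, from 11000001 to 12000000 with 94 H3K4me1-only regions among 229 H3K4me1 peaks and from 12000001 to 13000000 with 85 among 235. The next were chr10:74000001-75000000 (83 among 176), chr16:20000001-21000000 (83 among 182) and chr1:192000001-193000000 (79 among 153). Chromosomes 7 and 16 are among those with the highest input. On X, 94 of 155 windows held none, and 1 window held 38 of the 290 regions.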
